A study of Rattus norvegicus with 10 samples.

Results

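TGF-beta and VEGF are secreted growth factors whose messenger RNAs can be found in milk, and 8 of their genes were followed here in rat milk whey: the ligands Tgfb1, Tgfb2 and Tgfb3, the receptors Tgfbr1 and Tgfbr2, and the ligands Vegfa, Vegfb and Vegfc. The genes were given as a list, and every non-control probe that the array files name for one of them was used, which gave 12 of the 41012 probes: 3 for Tgfbr1, 2 each for Vegfa and Vegfb and 1 for each of the other genes. Whey is milk freed by centrifugation of its fat, its cells and its casein. It came from 3 adult F344/N dams at d 2, d 9 and d 16 postpartum, with 1 array per dam and day. All whey was collected by hand after an oxytocin injection under light anaesthesia, with the litter kept away beforehand. Serum of the same 3 dams at d 21 postpartum was mixed for a single array (1 array), and this group, without replicates, enters no test. No group carried a further treatment. Every array received the same amount of total RNA, and a level is therefore relative to the other RNA of the sample, not to a volume of milk. Fewer vesicles or cells carrying a transcript and less of it in each cannot be told apart in such samples.

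TGF-beta ligands are made as latent precursors, are set free outside the cell and bind the type II receptor Tgfbr2, which recruits and activates the type I receptor Tgfbr1; this signals through Smad proteins. In milk, TGF-beta is known as a factor that acts on the lining of the newborn gut and on its immune cells. VEGF ligands act on receptor tyrosine kinases of endothelium: Vegfa drives the growth and leakiness of blood vessels, Vegfb binds Flt1 among the VEGF receptors, and Vegfc acts on lymphatic vessels. Transcription of Vegfa rises when oxygen is low, through the hypoxia-inducible factors.

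A probe is a 60-base DNA strand that captures 1 stretch of a transcript, so probes of the same gene need not report the same value. The probes of Vegfa and Vegfb are shown because the changes between days turned on them and because 2 of them resemble each other. The sequences are those in the array files, 5′ to 3′, with positions in rat build rn4. Capitals mark the longest run that any 2 of the 12 probes share, or, in the second Vegfa probe, the first 3 bases.
Vegfa A_43_P15572: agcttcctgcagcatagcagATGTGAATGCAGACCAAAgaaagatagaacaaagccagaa
Vegfa A_44_P300751: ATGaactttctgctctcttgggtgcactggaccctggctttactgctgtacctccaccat
Vegfb A_44_P159040: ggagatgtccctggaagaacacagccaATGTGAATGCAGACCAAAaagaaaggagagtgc
Vegfb A_43_P16059: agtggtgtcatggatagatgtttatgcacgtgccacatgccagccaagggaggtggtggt

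Vegfa A_44_P300751 lies at chr9:10521744-10521803 on the plus strand and begins with ATG, the triplet at which translation starts. Vegfa A_43_P15572 lies 6776 bases further along, at chr9:10528580-10528965. Vegfb A_44_P159040 lies at chr1:209659244-209659672 on the minus strand and Vegfb A_43_P16059 at chr1:209660039-209660384, with 366 bases between them. The positions of 3 of these probes span 386, 429 and 346 bases, more than the 60 bases of a probe, as for a probe that joins stretches apart in the genome. Vegfa A_43_P15572 and Vegfb A_44_P159040 share a run of 18 bases, bases 21 to 38 of the first and 28 to 45 of the second, and the next longest run shared by any 2 of the 12 probes had 8 bases. Over the whole array, a run of that length was shared with a probe of another gene by these 2 probes alone of the 12, with each other and, for the Vegfa probe, with a probe of Vstm2a. Whether transcripts of one gene bound the probe of the other was not tested. GC content ranged from 35.0 to 55% over the 12 probes. All 12 transcript accessions in the files led to the same gene symbol in RefSeq for assembly GRCr8. The positions of the other probes are chr1:80910123-80910182 for Tgfb1, chr13:102719362-102719421 for Tgfb2, chr6:110173856-110173915 for Tgfb3 and chr8:120608696-120608755 for Tgfbr2. Those of Tgfbr1 are chr5:64008765-64008824 for A_43_P11556, chr5:64031453-64031512 for A_44_P703479 and chr5:64032274-64032333 for A_44_P640828, and that of Vegfc is chr16:40624468-40624527. Which of these positions are exonic or untranslated in rn4 was not analysed here.

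The 9 whey arrays differed in brightness. The 75th percentile of their processed signal, the background-corrected intensity of a spot, ran from 12.5 (d 2 replicate 1) to 83.2 (d 9 replicate 3), 6.65-fold from end to end. Serum had 4.11. The geometric mean of 9 spike-in probes, which report RNA added in known amounts, ran over a 1.48-fold range. The milk protein genes Csn1s1, Csn2, Csn3, Lalba and Wap, which mark mammary epithelium, gave signal well above background on every whey array. They did so on the serum array too, where their summed processed signal was 606 against 408860 to 1395638 on the whey arrays. The arrays lay on 3 slides: slide 1 held d 2 of dams 1 and 2, slide 2 held d 2 of dam 3 and all of d 9, and slide 3, scanned on a later day than the others, held all of d 16 and the serum. For d 16, the day of lactation and the slide cannot be told apart.

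Tgfb3 and Vegfa were the members seen on all 9 whey arrays, with 2 probes that were well above background throughout, the probe of Tgfb3 and Vegfa A_43_P15572. A probe counts as well above background by the flag of the scanner software, and as detected in a group where, on 1 of its arrays or more, its processed signal also exceeded 20. By the flag alone, 6 member probes stood above background on at least 1 array of d 2, 6 on d 9, 7 on d 16 and 1 in serum, where 37.0, 45.9, 41.7 and 15.0% of all probes were. By the rule with the minimum signal, 4 member probes of 3 genes were detected in d 2 whey, 5 of 4 genes in d 9 whey, 3 of 2 genes in d 16 whey and 0 in serum, where 28.7, 39.0, 32.3 and 8.60% of all probes were detected. Detected in whey were Tgfb2 (on d 9 alone), Tgfb3, both Vegfa probes and Vegfb A_44_P159040 (on d 2 and d 9). By the flag alone, Tgfb2 and Vegfb A_44_P159040 were above background on all 3 arrays of d 16 too. Tgfb1, all 3 Tgfbr1 probes, Tgfbr2, Vegfb A_43_P16059 and Vegfc were detected in whey on no day. With a minimum signal of 100 instead of 20, the counts were 1, 2 and 1 for d 2, d 9 and d 16.

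The counts were lowest on the dimmest whey array. On d 2 replicate 1, the dimmest whey array, 2 member probes were above background and 1 was detected, and on d 9 replicate 3, the brightest, 6 were above background and 5 were detected. In all, 7 of the 9 whey arrays, with 75th percentiles from 20.2 to 83.2, had 6 probes above background. Of 3 arrays of nearly equal brightness, d 2 replicate 2 (20.2) had 6 above background and 3 detected. There d 9 replicate 1 (21.2) had 3 and 2, and d 16 replicate 1 (21.5) had 6 and 2. Among brighter arrays, d 2 replicate 3 (28.0) and d 9 replicate 2 (41.8) had 4 detected. On d 16 replicates 3 (34.4) and 2 (40.6), 3 were detected. The part of brightness in the counts was not tested.

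**Figure D1:**
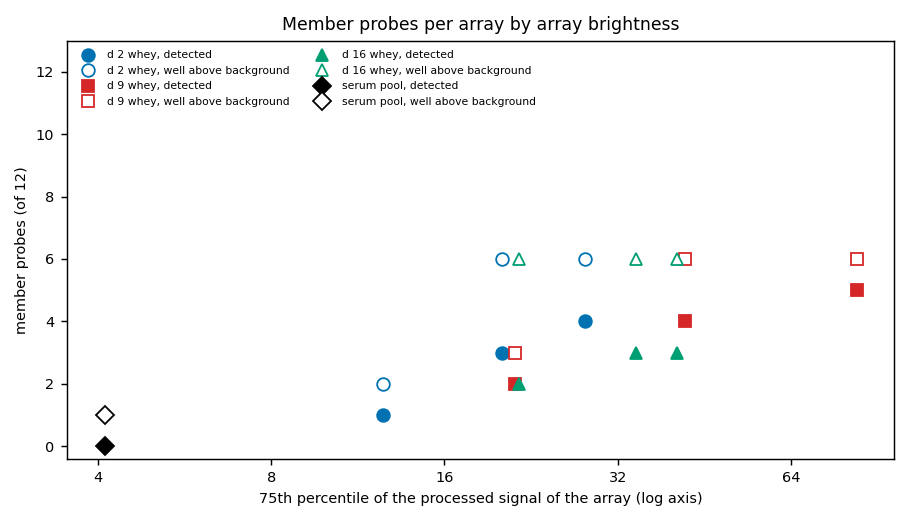
Number of the 12 member probes well above background (open) and detected (filled) on each of the 10 arrays, against the 75th percentile of the processed signal of the array on a log axis. The dimmest whey array, with a percentile of 12.5, has 1 detected probe and the brightest, with 83.2, has 5, while the serum array has 1 probe above background and 0 detected.

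Levels are given below as log2 of the processed signal after quantile normalization over the 10 arrays, and are not compared between probes. Changes between days are log2 differences from limma over the 9 whey arrays, with p-values adjusted by Benjamini-Hochberg over the 16849 probes detected in whey. Only 5 member probes of 4 genes were among those: Tgfb2, Tgfb3, both Vegfa probes and Vegfb A_44_P159040. Since entry required a high enough signal on some whey array, these 5 do not stand for all 12.

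**Figure D2:**
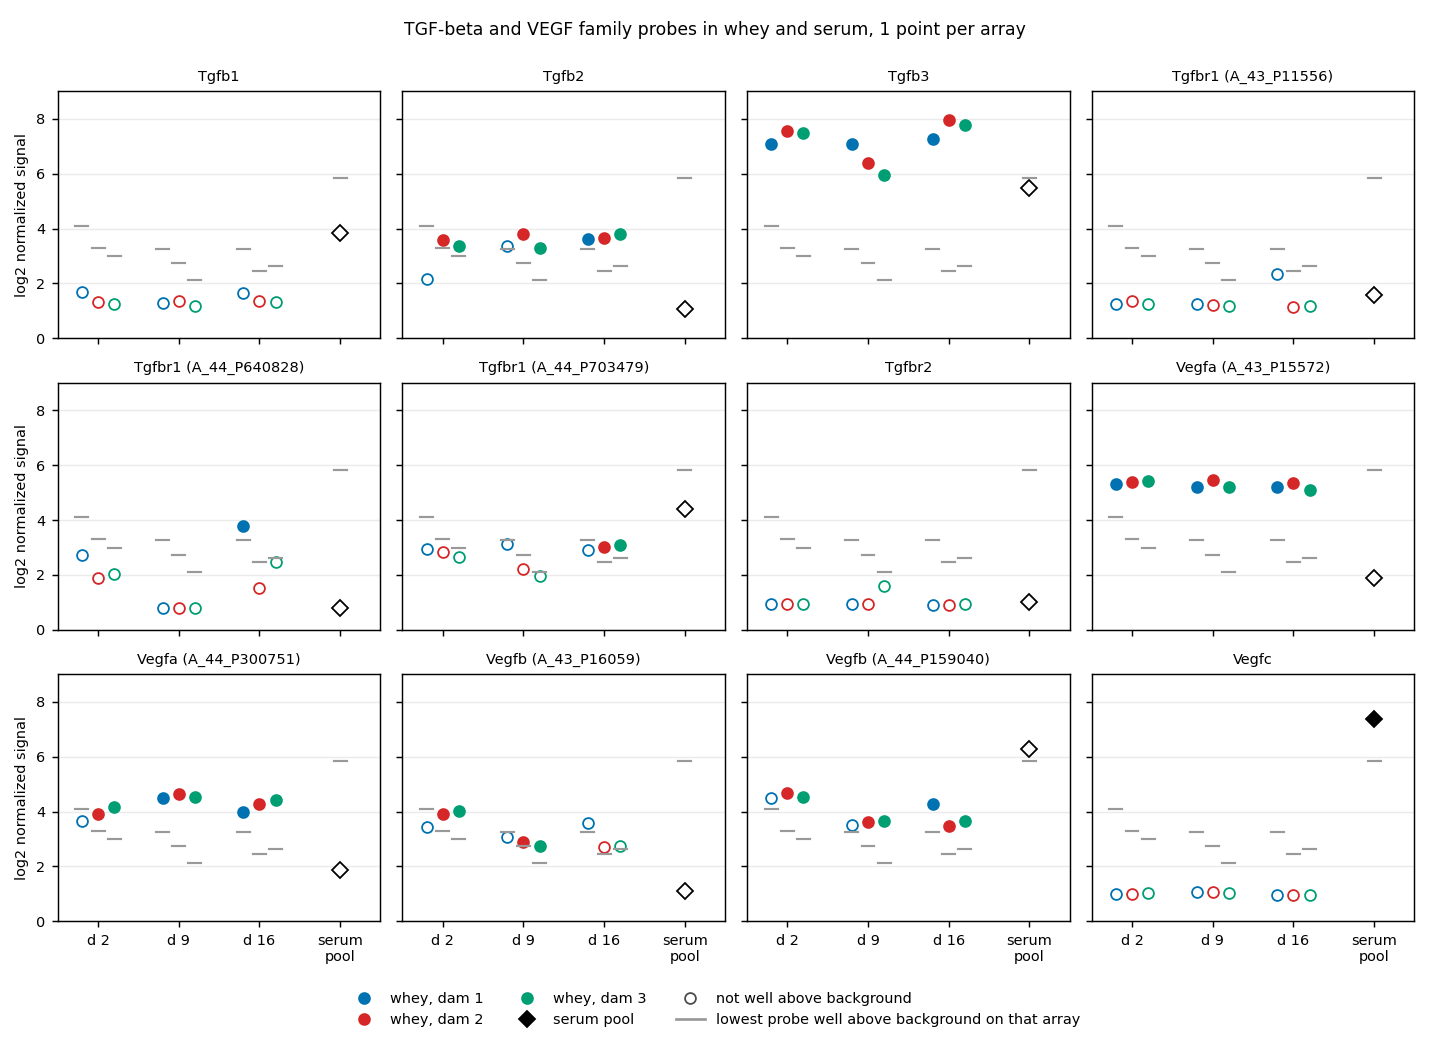
Log2 normalized signal of the 12 member probes on each array, with the 3 dams in colour and the serum pool as a diamond, filled where the probe was well above background, and a grey dash at the lowest value of any probe above background on that array. Tgfb3 and Vegfa A_43_P15572 are filled on all 9 whey arrays, Vegfc only in serum (7.38), and Tgfb1, Tgfbr2 and Tgfbr1 A_43_P11556 on no array.

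Among the TGF-beta ligands, Tgfb3, which acts in the development of epithelia and in wound repair, was the one measured throughout. Its log2 levels were 7.07, 7.55 and 7.49 on d 2, 7.09, 6.40 and 5.95 on d 9 and 7.26, 7.96 and 7.77 on d 16 for dams 1 to 3. Its processed signal ran from 67.4 to 450.5 over these arrays. All d 16 values were above all d 9 values, while d 2 and d 9 overlapped through dam 1, whose d 9 value was slightly above its d 2 value. The log2 change from d 2 to d 9 was -0.89 (SE 0.31, limma adjusted p 0.0873), lower in 2 of 3 dams, and did not pass. From d 9 to d 16 it was 1.18 (SE 0.31, limma adjusted p 0.113), higher in 3 of 3 dams, and did not pass either, with an unadjusted limma p of 0.00569. From d 2 to d 16 the difference was 0.29 with a 95% interval of -0.44 to 1.02. Within slide 2, the 3 d 9 arrays gave a mean log2 difference from the d 2 array of -1.01. On d 9 the brighter arrays had the lower levels: percentiles of 21.2, 41.8 and 83.2 went with log2 levels of 7.09, 6.40 and 5.95. Their processed signals were 123.5, 160.7 and 237.1. On d 2 and d 16 the dimmest array had the lowest level. Percentiles of 12.5, 20.2 and 28.0 went with 7.07, 7.55 and 7.49 on d 2. Those of 21.5, 40.6 and 34.4 went with 7.26, 7.96 and 7.77 on d 16. The part of brightness in these levels was not tested. Without d 9 replicate 1 the change from d 2 to d 9 was -1.20 with a limma adjusted p of 0.0347, and scaled to the spike-in probes it was 0.58, of the opposite sign, with a limma adjusted p of 0.450.

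Tgfb2, whose protein is the TGF-beta form most often described as abundant in milk, gave an mRNA signal near the lower end of what the arrays measured. Its log2 levels were 2.16, 3.58 and 3.37 on d 2, 3.36, 3.81 and 3.30 on d 9 and 3.61, 3.66 and 3.79 on d 16. It was well above background on 7 of the 9 whey arrays, and its processed signal exceeded 20 only on d 9 replicates 2 (23.2) and 3 (28.9). On d 16 it was above background on all 3 arrays, with processed signals of 11.3, 19.9 and 19.1. The lowest log2 level is that of d 2 replicate 1, where Tgfb2 was not above background and the processed signal was 2.87. The log2 change from d 2 was 0.45 on d 9 (95% interval -0.37 to 1.26) and 0.65 on d 16 (-0.17 to 1.46), that between d 9 and d 16 was 0.20 (-0.62 to 1.01), and none passed, with limma adjusted p of 0.396, 0.206 and 0.799. Without d 2 replicate 1 the changes from d 2 were 0.00878 on d 9 and 0.21 on d 16.

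Tgfb1, the form that platelets and immune cells release, was not well above background on any of the 10 arrays. Its probe stands in 10 spots on each array, and its processed signal, averaged over them, was 2.15 to 3.498 in whey and 3.64 in serum. With a signal this close to background, the arrays alone cannot set a presence of Tgfb1 mRNA below their reach apart from none. By quantitative PCR on equal volumes, the study reported Tgfb1 mRNA in whey as well as in serum, at similar levels.

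The receptors were at or near background. Tgfbr2, the type II receptor that binds the ligand, was above background on 0 of 10 arrays, with log2 levels of 0.89 to 1.58 in whey and 1.00 in serum. Tgfbr1 has 3 probes, which differed. A_43_P11556 was above background on no array. A_44_P640828 was above background on d 16 replicate 1 alone, at a log2 level of 3.77 and a processed signal of 12.6, while the other 2 d 16 arrays had 1.53 and 2.48. A_44_P703479 was above background on d 16 replicates 2 and 3, at log2 levels of 3.02 and 3.097, and not on d 16 replicate 1 (2.92). The 2 probes that were above background anywhere thus were so on different d 16 arrays, 761 bases lie between them, and none of the 3 reached a processed signal of 20.

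Among the VEGF ligands, Vegfa gave signal in whey on every day on both probes. On A_43_P15572, which stands in 10 spots per array, log2 levels were 5.30, 5.38 and 5.42 on d 2, 5.19, 5.47 and 5.20 on d 9 and 5.20, 5.35 and 5.09 on d 16. The days overlapped, and the 9 values had an SD of 0.13 around a mean of 5.29. The log2 change from d 2 was -0.08 on d 9 (95% interval -0.38 to 0.21) and -0.16 on d 16 (-0.45 to 0.14), and that between d 9 and d 16 was -0.07 (-0.37 to 0.22), with limma adjusted p of 0.680, 0.395 and 0.793. Quantitative PCR of the study, on equal volumes, found no change of Vegfa mRNA over lactation.

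On Vegfa A_44_P300751, log2 levels were 3.67, 3.93 and 4.15 on d 2, 4.50, 4.63 and 4.54 on d 9 and 3.98, 4.28 and 4.42 on d 16. All d 9 values were above all values of d 2 and of d 16, and d 2 replicate 1 was not well above background. The level rose from d 2 to d 9 by 0.64 on the log2 scale (SE 0.17, 1.56-fold, limma adjusted p 0.0364), in 3 of 3 dams. To d 16 the log2 change from d 2 was 0.31 (95% interval -0.07 to 0.70, limma adjusted p 0.196) and from d 9 to d 16 it was -0.33 (-0.72 to 0.06, limma adjusted p 0.334). Within slide 2 the change from d 2 to d 9 was 0.41, and with slide as a block its limma adjusted p was 0.377. With normexp background correction the change from d 2 to d 9 was 0.22 (limma adjusted p 0.0301), and scaled to the spike-in probes it was 2.04. Leaving out d 2 replicate 1 or 2, d 9 replicate 1, 2 or 3, or d 16 replicate 2 or 3 changed its limma adjusted p. It rose to 0.0842, 0.0901, 0.0651, 0.110, 0.0618, 0.0575 and 0.0508 in that order.

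The probes of Vegfa were therefore set against each other. Between d 2 and d 9 the change on A_44_P300751 exceeded that on A_43_P15572 by 0.72 on the log2 scale, in 3 of 3 dams, and between d 2 and d 16 by 0.47, again in 3 of 3. The differences between the 2 probes on an array did not overlap between d 2 and d 9, nor between d 2 and d 16. The two-sided exact permutation p was 0.1 for both, the smallest that 3 arrays against 3 can give, and 0.3 after Benjamini-Hochberg adjustment over 6 comparisons of probe pairs. No outcome of this test could have passed, and the comparison was made with the values in view, so the differences are given as a description.

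Vegfb, which binds the VEGF receptor Flt1 and is best known from heart and muscle, was lower after d 2. On A_44_P159040 its log2 levels were 4.50, 4.67 and 4.53 on d 2, 3.53, 3.60 and 3.65 on d 9 and 4.28, 3.47 and 3.66 on d 16. All d 2 values were above all values of d 9 and d 16, and the d 16 value nearest to them was that of dam 1. The level fell by 0.97 on the log2 scale to d 9 (SE 0.20, limma adjusted p 0.0178) and by 0.76 to d 16 (SE 0.20, limma adjusted p 0.0275), each in 3 of 3 dams, although scaled to the spike-in probes the first of these was a log2 change of 0.35, of the opposite sign. From d 9 to d 16 the change was 0.21 (95% interval -0.26 to 0.68, limma adjusted p 0.608). Within slide 2 the change from d 2 to d 9 was -0.93, and with slide as a block the limma adjusted p was 0.161. With normexp background correction the changes were -0.18 and -0.10, with limma adjusted p of 0.0848 and 0.281.

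Single arrays decided these calls as well. For Vegfb A_44_P159040 the limma adjusted p to d 9 became 0.0585 when d 2 replicate 2 was left out and 0.0591 when d 9 replicate 2 was. To d 16 it was 0.0509, 0.0821 and 0.0571 without d 2 replicates 1, 2 and 3, and 0.0792 and 0.0919 without d 16 replicates 2 and 3. The probe was dim: it was above background on 7 of 9 whey arrays, not on d 2 replicate 1 or d 9 replicate 1. The changes of dam 1, counted among the 3 of 3 dams, thus start from a d 2 value not above background. To d 9 they also end at such a value. The processed signal of the probe lay between 10.04 and 39.0. On d 16 the processed signals of the 3 arrays were nearly alike, 17.7, 17.3 and 17.5, while the log2 normalized levels of 4.28, 3.47 and 3.66 went with 75th percentiles of 21.5, 40.6 and 34.4. The d 2 arrays had percentiles of 12.5, 20.2 and 28.0. The part of array brightness in the fall was not tested.

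The other Vegfb probe, A_43_P16059, never reached a processed signal of 20 and was not tested with the others. It was above background on 2 of 3 arrays of d 2, 2 of d 9 and 0 of d 16. Its log2 levels were 3.43, 3.91 and 4.01 on d 2, 3.09, 2.91 and 2.75 on d 9 and 3.59, 2.71 and 2.76 on d 16. In dams 1 to 3 the difference from d 2 to d 9 was -0.34, -1.003 and -1.27, against -0.97, -1.06 and -0.87 on A_44_P159040. The difference to d 16 was 0.16, -1.20 and -1.26, against -0.22, -1.20 and -0.86. The mean changes on the 2 probes differed by 0.10 on the log2 scale to d 9 (exact permutation p 0.7) and by -0.00470 to d 16 (exact permutation p 1). As for Vegfa, the smallest p this test can give is 0.1, so it cannot show that the probes report the same change. When all 41012 probes were tested without a filter, A_43_P16059 had a log2 change of -0.87 from d 2 to d 9 with a limma adjusted p of 0.122, and A_44_P159040 passed from d 2 to d 9 with 0.0345.

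**Figure D3:**
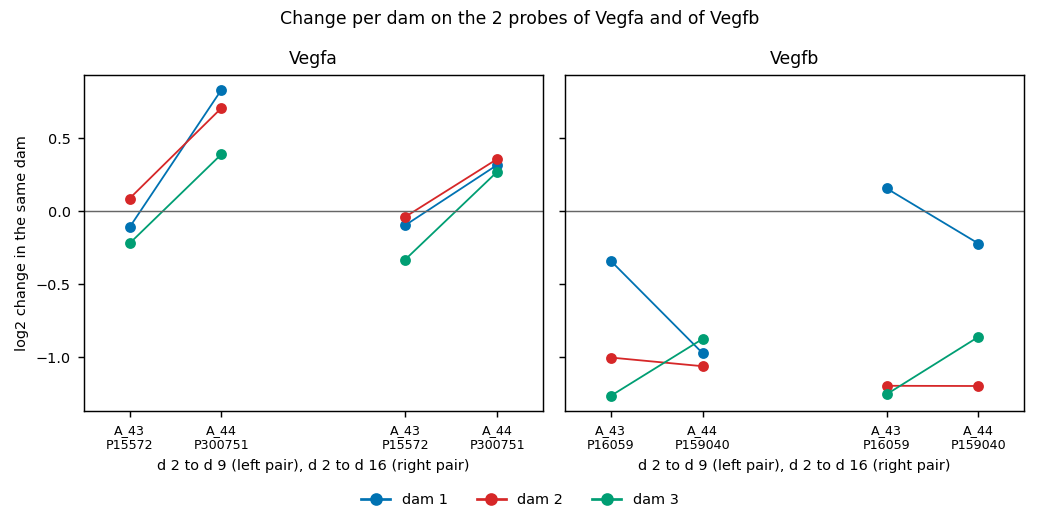
Log2 change in each of the 3 dams (colours, joined by lines) on both probes of Vegfa and both probes of Vegfb, from d 2 to each later day. For Vegfa the probe A_44_P300751 lies above A_43_P15572 in every dam, and for Vegfb the values of both probes lie below 0 except in dam 1 from d 2 to d 16 on A_43_P16059 (0.16), and the signs hold for quantile normalization, since scaling to the spike-in probes turned that of Vegfb A_44_P159040 from d 2 to d 9.

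Counted over the family, 2 of the 5 tested probes passed from d 2 to d 9, 1 higher and 1 lower, where 17.6% of all tested probes passed, 11.3% higher and 6.36% lower. From d 2 to d 16, 1 of 5 passed, lower, where 28.5% of all did, 16.0% higher and 12.4% lower. From d 9 to d 16, 0 of 5 passed in limma and 1 had an unadjusted p under 0.05, where 1.42% of all passed, 0.564% higher and 0.855% lower. The F test over the 3 days was passed by 1 of 5, Vegfb A_44_P159040 (limma adjusted p 0.0227), where 25.6% of all tested probes passed. With the dam as a block 2 of 5 passed it. With 5 probes the counts cannot be set apart from these shares. The median log2 change of the 5 was -0.08, 0.29 and 0.20 in the 3 comparisons, and that of all tested probes was 0.11, 0.04 and -0.06. Scaled to the spike-in probes, the median over all tested probes was 1.52, 0.58 and -0.93, and relative to that median the change of Vegfb A_44_P159040 from d 2 to d 9 was -1.17 and that of Vegfa A_44_P300751 was 0.52.

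**Figure D4:**
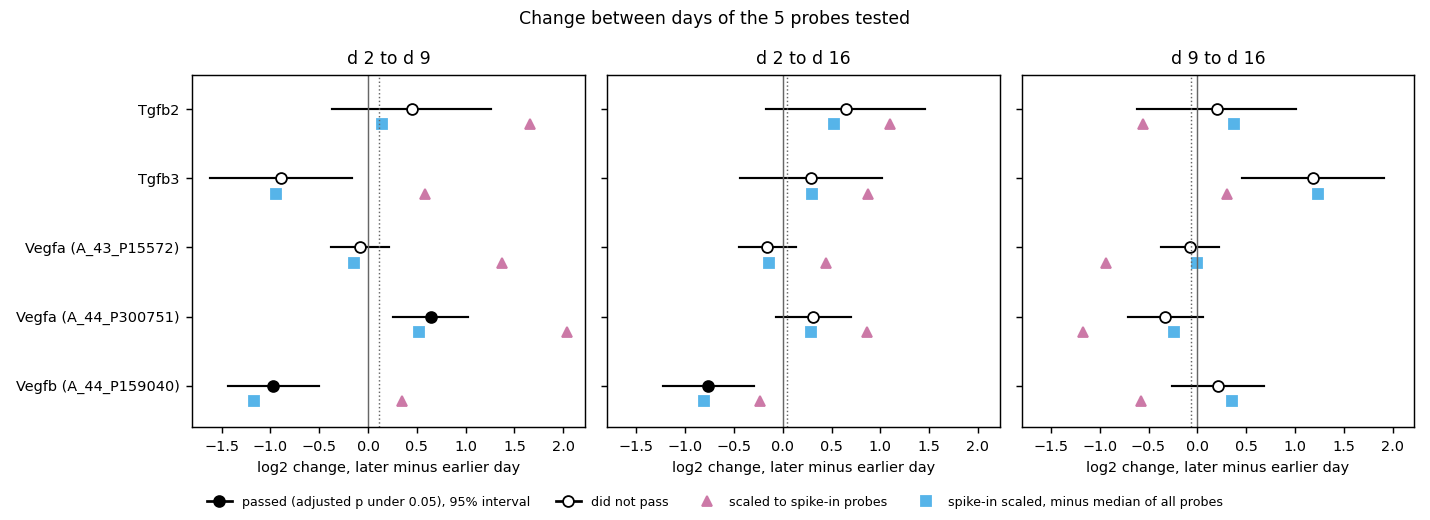
Log2 change between days of the 5 tested probes with its 95% interval (black, filled where the limma adjusted p was under 0.05), with the same change after scaling to the spike-in probes (triangles) and after subtracting the median of all tested probes from that (squares); a dotted line marks the median of all tested probes. Vegfb A_44_P159040 lies at -0.97 from d 2 to d 9 and at 0.35 with spike-in scaling, and returns to -1.17 once the median of 1.52 is taken off.

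In serum, Vegfc, the lymphatic ligand, was the one member well above background. Its log2 level was 7.38 there, with a processed signal of 17.1, under the minimum of 20. In whey the level was 0.94 to 1.07 on the 9 arrays and never above background. Taking the mean over the whey arrays of the lowest value of any probe above background on each as a limit, Vegfc was at least 21.0-fold higher in serum. Array by array this bound ran from 9.62-fold (d 2 replicate 1) to 38.2-fold (d 9 replicate 3). The bound depended on the scaling, and was 13.9-fold by the 75th percentile, 3.42-fold with normexp and 1.97-fold by the spike-in probes. Tgfb3 went the other way: it was 7.17 ± 0.65 (SD, n = 9) in whey and 5.49, not above background, in serum. With the lowest serum value of any probe above background as the limit, it was at least 2.51-fold higher in whey. Under the other scalings this bound was 2.499-fold to 24.1-fold. By day the bound was 2.89-fold for d 2, 1.56-fold for d 9 and 3.53-fold for d 16 whey. These limits are not strict, since Vegfb A_44_P159040 was not above background at 6.27 in serum and at 4.50 on d 2 replicate 1. The lowest values of any probe above background on those arrays were 5.84 and 4.11. For the remaining members no fold can be given, since they were not above background in serum and the whey mean was not above that limit of 5.84 on the log2 scale. For Vegfa A_43_P15572, for example, whey was at 5.29 ± 0.13 and serum at 1.90. Other probes had the higher value in serum, though not above background there. These were Vegfb A_44_P159040 (6.27 against 3.99 in whey), Tgfb1 (3.83 against 1.38), Tgfbr1 A_44_P703479 (4.40 against 2.75) and Tgfbr1 A_43_P11556 (1.58 against 1.35).

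Platelet, erythroid and neutrophil markers were higher on the single serum array than in whey. Of 7 probes for 6 platelet genes, 6 were well above background in serum, with a summed processed signal of 24591 against 24.1 to 134.8 in whey. Pf4, a platelet chemokine, had a log2 level of 16.09 in serum and of 3.13 to 5.75 in whey. Of 9 probes of endothelial markers, 3 were above background in serum, and erythroid markers summed to 6028 in serum against 11.1 to 28.6 in whey. Neutrophil markers summed to 1104 in serum against 19.2 to 729 in whey. Macrophage markers went the other way, with 40.4 in serum against 113 to 495 in whey. The part of any of these cells in the Vegfc signal was not tested.

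Other genes of the 2 pathways were taken from a list that was chosen with earlier results of these data known, so the counts below are descriptions. For the TGF-beta pathway 28 of 32 listed genes were on the array, with 39 probes, of which 21 probes of 15 genes were tested. To d 9, 7 of the 21 passed, all 7 higher, and to d 16, 10 of 21 passed, all 10 higher. The shares of all tested probes given above were 11.3 and 16.0%. Probes of the same gene are counted singly here: those that passed were of 4 genes to d 9 and of 7 to d 16. Between d 9 and d 16, 0 of 21 passed. The median log2 change of the 21 probes was 0.57, 0.78 and 0.01 in the 3 comparisons. Of these 21 probes, 12 were of Smads and their regulators, and 6 of the 12 passed to d 9 and 8 to d 16. Another 5 were of target genes, of which 1 passed to d 9 and 2 to d 16. Of all tested probes, 17.6% passed to d 9 and 28.5% to d 16. None of the 2 tested probes for release of the ligand (Furin, Itgb6) and none of the 2 for co-receptors (Eng, Tgfbr3) passed on any day.

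Among the Smads and their regulators, 5 of 8 tested genes had a probe that passed on some day. The share of all tested genes with any probe passing on any day was not taken, so this count is a description. Fkbp1a, whose protein FKBP12 binds the type I receptor and keeps it silent, rose on its 3 probes by 0.57, 0.39 and 1.14 on the log2 scale to d 9 and by 0.51, 0.39 and 1.15 to d 16, and all 3 passed on both days. Smurf2, a ubiquitin ligase that marks the receptor and Smads for degradation, rose on 2 of its 3 probes, by 0.79 and 0.73 to d 9 and by 1.09 and 1.08 to d 16 (limma adjusted p 0.00112 and 0.00240 for the latter), and the remaining probe was not tested. Smad7, the inhibitory Smad, had a log2 change of 0.50 to d 9 (limma adjusted p 0.0651) and rose by 0.83 to d 16 (limma adjusted p 0.00788). Tgif1, a repressor of Smad targets, was above background on 0 of 3 arrays of d 2 and on all 3 of d 9 and of d 16. Its fitted change of 1.05 to d 16 passed (limma adjusted p 0.0413), but it was 1.05-fold higher than the lowest values above background on the d 2 arrays. With normexp the log2 change was 0.11. Smad4, the shared Smad that carries the signal to the nucleus, rose by 0.84 to d 9 and by 0.78 to d 16 (limma adjusted p 0.0298 and 0.0264), and by normexp neither passed, at log2 changes of 0.19 and 0.18 (limma adjusted p 0.0718 and 0.0675). Smad2, a Smad that the receptor activates, did not pass, at 0.49 and 0.28. Nor did Skil, a repressor of Smad signalling, on its 2 tested probes, at 0.60 and 0.50 to d 9 and at -0.00356 and 0.02 to d 16, or Zfyve9, which anchors Smads at the receptor, at 0.38 and 0.39.

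Of the target genes, Tgfbi, an extracellular matrix protein named for its induction by TGF-beta, was tested on 1 of its 2 probes, which was above background on 0 of 3 arrays of d 2 and on all 3 of d 9 and of d 16. Its change to d 9 did not pass (limma adjusted p 0.0818). It rose to d 16 (limma adjusted p 0.00317), where it was 2.88-fold higher than the lowest values above background on the d 2 arrays, which are no strict limit. The fitted log2 change to d 16 was 2.41 (SE 0.36), and with normexp it was 0.46. Col1a1, the collagen chain of connective tissue, rose on A_44_P350521, which was likewise above background on 0 of 3 arrays of d 2. Against the same lowest d 2 values it was 1.41-fold higher on d 9 and 1.66-fold higher on d 16. The fitted log2 changes were 0.998 and 1.23, and 0.19 and 0.23 with normexp, where that to d 9 did not pass (limma adjusted p 0.0687). Its other 2 tested probes did not pass, A_44_P419137 (-0.08 and 0.03) and A_44_P238421 (1.11 and 0.11). Ctgf did not pass, at 1.15 and 1.12, with SEs of 0.70. Scaling to the spike-in probes put the median log2 change of all tested probes at 1.52 to d 9 and 0.58 to d 16. With this scaling, 18 of 28 pathway probes passed to d 9 and 1 to d 16. Of all 16849 tested probes, 6882 passed to d 9 and 753 to d 16 with it.

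For the VEGF pathway, all 12 listed genes were on the array with 15 probes, of which 7 probes of 5 genes were tested. Of the receptors Flt1, Kdr and Flt4 and the co-receptors Nrp1 and Nrp2, the probe of Kdr alone was tested, and it did not pass. The ligands Pgf and Figf were not detected in whey, and Pgf was above background in serum, at 6.36. The other 6 tested probes were of oxygen-sensing genes. Egln1, the prolyl hydroxylase that marks hypoxia-inducible factors when oxygen is present, rose by 0.64 to d 9 (limma adjusted p 0.0285) and by 1.02 to d 16 (limma adjusted p 0.00330). Vhl, which takes the marked factors to degradation, rose on 1 of its 2 probes by 0.75 to d 9 (limma adjusted p 0.0155), with 0.25 to d 16. Hif1a, the factor itself, fell by 0.50 to d 16 on A_43_P12423 (limma adjusted p 0.0349), a change of 0.05 when scaled to the spike-in probes, while its other probe, A_44_P397495, was at -0.05. Epas1, a second hypoxia-inducible factor, did not pass, at 0.12 and 0.43. In all, 2 of 7 probes passed to d 9, 2 to d 16 (1 higher, 1 lower) and 0 between d 9 and d 16, where 17.6, 28.5 and 1.42% of all tested probes passed. The median log2 change of the 7 probes was 0.25, 0.26 and -0.08. Of the 9 pathway probes that passed to d 9, Fkbp1a A_44_P538406 did so with slide as a fixed block too (limma adjusted p 0.0319), while the others were at 0.0576 to 0.344. With the dam as a block, Fkbp1a A_44_P386331 to d 9 and Tgif1 to d 16 did not pass, with limma adjusted p of 0.0534 each. Calls in both pathways were also lost when single arrays were left out: of the 9 to d 9, 2 were called whichever array was left out (Fkbp1a A_44_P538406 and Smurf2 A_44_P234624), and of the 12 to d 16, 7 were. Without d 9 replicate 2 alone, Vhl (limma adjusted p 0.0566) and Smurf2 A_44_P825523 (0.0586) were lost to d 9. The other Fkbp1a probes and Smad4 were each lost under 5 or more of the 9 omissions on both days, Egln1 to d 9 under 5, Hif1a to d 16 under 6, Tgif1 to d 16 under 6 of the 8 in which it was tested and Col1a1 to d 9 under 2, with limma adjusted p of 0.0503 to 0.122 over all of these.

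**Figure D5:**
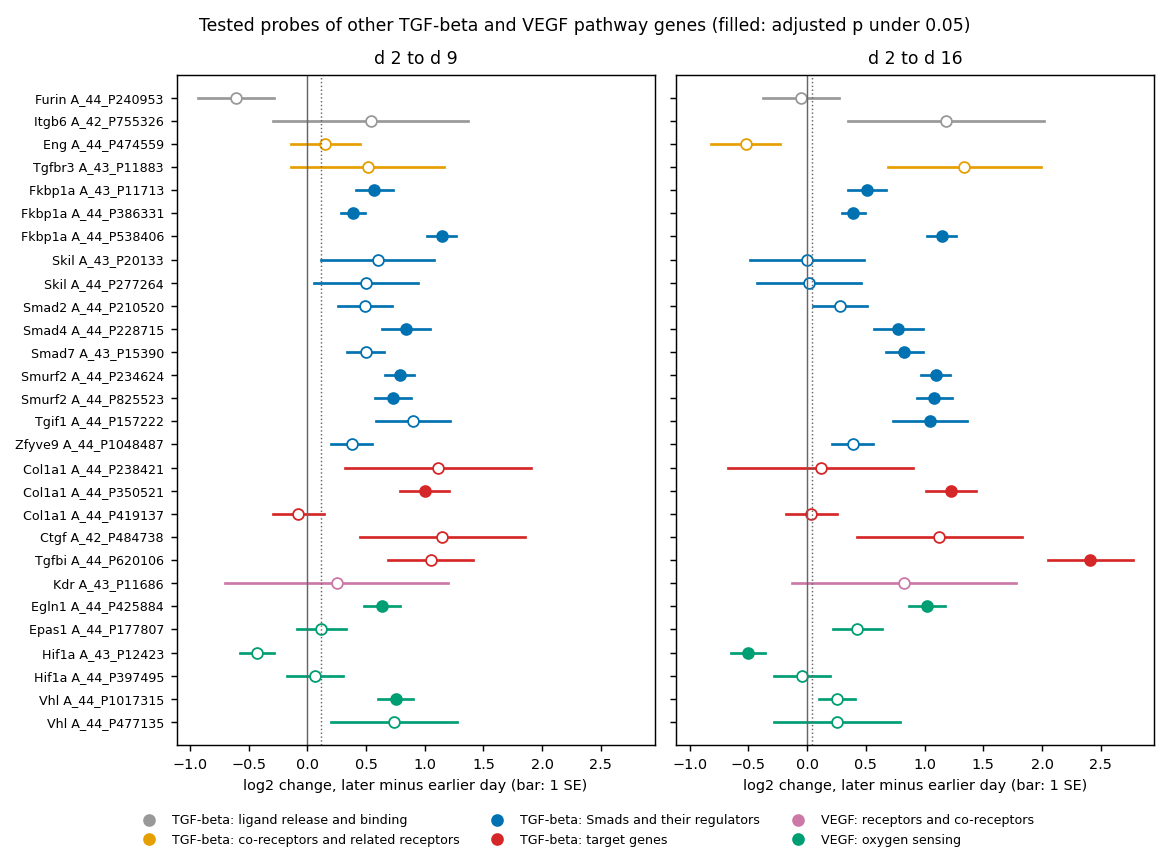
Log2 change of the 28 tested probes of other TGF-beta and VEGF pathway genes from d 2 to either later day, with 1 SE either side, filled where the limma adjusted p was under 0.05, in colours for the role of the gene; a dotted line marks the median of all tested probes. The filled points lie to the right of 0 except Hif1a A_43_P12423 at -0.50 (0.05 with spike-in scaling), and Tgfbi lies at 2.41 on d 16. On d 2 the filled probes of Tgfbi, Tgif1 and Col1a1 were above background on no array, so that their points rest on unmeasured d 2 values.

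Across the 9 whey arrays, the probes whose pattern was most like that of Tgfb3 were those of RGD1309707 (Pearson r 0.948), Clip2 (0.934) and Sh3yl1 (0.927), out of 7253 candidate probes above background on all whey arrays. For Vegfa A_43_P15572 they were Egr1 (0.902), Commd9 (0.900) and Pex16 (0.849). These are descriptions over 9 arrays that share dams, slides and brightness.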

How the data were processed

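The authors hybridized 1-colour Agilent rat arrays and made the spot values with Feature Extraction 9.5.3.1. The deposited processed signal is an intensity, background-subtracted and not normalized between arrays. The deposited mean and background intensities served for normexp correction, and the deposited flags of 0 or 1 (other values) for background and outliers. The deposited normalized values of the whole series (10 columns) were not used, since the column names match no label. Of these values, log2 processed signal was quantile normalized over 10 arrays, as the study's methods state, outlier spots were set to missing and spots of a probe averaged. Days were compared with limma 3.58.1 (R 4.3.3, data.table version 1.17.8, jsonlite 2.0.0), unpaired, with 1.83 prior degrees of freedom, at a threshold of 0.05. The steps were tested on simulated data. The labels number the same 3 dams on each day, so numbers pair arrays, and deviations of same-numbered arrays correlated by -0.02 to 0.22. The number of arrays limits the precision. The members and lists were chosen with earlier results of these data known. Named were all member probes, pathway probes past the threshold between any 2 days, and the 3 probes most correlated with each member above background on all whey arrays. Others were named to complete a list and chosen after their values were seen. Alternatives were scaling, background correction, filters, blocks, the methods' Tukey-Kramer test and leaving out arrays.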

Additional observations from a re-analysis of the deposited data

How the results depend on the processing

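Between d 2 and d 9, 2 of the 5 tested member probes passed. Normexp background correction gave 1, a minimum signal of 100 gave 1 of 2 tested, no filter gave 1 of 12 tested, and the Tukey-Kramer test and slide as a fixed block each gave 0. Leaving out 1 array at a time gave 0 to 2. Between d 2 and d 16, where 1 passed, normexp, spike-in scaling, a minimum signal of 100, no filter and the Tukey-Kramer test each gave 0, and leaving out 1 array gave 0 to 1. Between d 9 and d 16, where 0 passed, a minimum signal of 100 gave 1, with Tgfb3 at a limma adjusted p of 0.0499. The F test over all days, where 1 passed, gave 0 under spike-in scaling, 2 with dam as the replicate block, 3 with slide as a random block and 0 to 2 with 1 array left out. The dam block changed no other call of a member, and 8 and 11 pathway probes passed with it in place of 9 and 12. Of the 28 tested pathway probes, 9 passed to d 9, against 18 under spike-in scaling, 4 by the Tukey-Kramer test and 3 to 9 with 1 array left out (3 without d 9 replicate 2, 4 without d 9 replicate 1, 5 without d 16 replicate 3). To d 16, 12 passed, against 1 under spike-in scaling and 7 to 12 with 1 array left out (7 without any one of d 16), and between d 9 and d 16, 0 passed, against 1 under normexp. Of all 16849 tested probes, 2969 passed to d 9, against 3440 with normexp, 6882 under spike-in scaling and 1297 by the Tukey-Kramer test. Slide as a fixed block gave 498. To d 16, 4801 passed, against 4929 with normexp, 753 under spike-in scaling and 2683 by Tukey-Kramer. Between d 9 and d 16, 239 passed, against 855 with normexp. At a minimum signal of 100, 2991, 4129 and 618 of 9605 passed in the 3 comparisons. Without a filter, 2448, 4335 and 131 of 41012 did. The member probes detected at d 2, d 9 and d 16 numbered 4, 5 and 3. At a minimum signal of 100 they numbered 1, 2 and 1. Under spike-in scaling these log2 changes took the opposite sign: Tgfb3 to d 9 (0.58), Vegfa A_43_P15572 to d 9 (1.38) and d 16 (0.44), Vegfb A_44_P159040 to d 9 (0.35) and between d 9 and d 16 (-0.58), and Tgfb2 between d 9 and d 16 (-0.56). Between d 9 and d 16, leaving out 1 array gave Vegfa A_43_P15572 -0.14 to 0.0185 and Vegfb A_44_P159040 -0.0277 to 0.38. The log2 difference of whey from serum for Vegfb A_43_P16059, 2.13, became -0.22 with 75th-percentile scaling and -0.0405 with normexp, and for Vegfb A_44_P159040, -2.29, it became 0.98 under spike-in scaling. The causes were not tested. The minimum signal of 20 left 7 of the 12 member probes untested, of which 4 were above background on no whey array.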
